A study of Mus musculus with 2 samples.

Results

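Fgf21, the gene of fibroblast growth factor 21, was followed through the stromal vascular cells of 2 mouse adipose depots, as 1 of 30614 genes listed in at least 1 of the 2 single-cell matrices. Its raw counts of unique molecular identifiers (UMIs, 1 per captured transcript) were read over all kept cells. After the cell filter, 2924 of 29744 cells from inguinal white adipose tissue (iWAT) and 282 of 28215 cells from interscapular brown adipose tissue (iBAT) had an Fgf21 UMI. These cells held 7129 Fgf21 UMIs in iWAT and 607 in iBAT. The gene, the classes of cells and the contrast between Fgf21-positive and Fgf21-zero cells were picked with Fgf21 values of these matrices in view, so all that follows is a description without a test.

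Both libraries came from wild-type C57BL/6N mice, aged 8 to 12 weeks per the labels, whose stromal vascular fractions were pooled over animals, grown in high-glucose medium and treated with FGF at 5.5 nM for 48 h. Each depot gave 1 BD Rhapsody library, a microwell method, in which cells of untreated, FGF1, FGF2 and FGF8 cultures were merged under sample tags. The tags were not used here, so every value is that of a mixture in which 3 of 4 cultures had received an FGF, and no treatment was compared. The paper's methods list fewer treatments for these cells (vehicle, FGF1 and FGF2) and other ages, a difference that was not resolved.

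FGF21 is an endocrine member of the FGF family that signals through FGF receptors, chiefly FGFR1, together with the co-receptor beta-Klotho, encoded by Klb. It is best known as a hepatic hormone of fasting, driven by PPAR-alpha, and as a stress hormone, since the transcription factor ATF4 of the integrated stress response (ISR) acts on its promoter in liver, muscle and adipocytes. The ISR is the program that cells start when translation is slowed by amino acid shortage, endoplasmic reticulum (ER) stress or mitochondrial stress, and it raises genes of amino acid supply and one-carbon metabolism.

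Fgf21 (ENSMUSG00000030827.7) lies on the minus strand of chromosome 7, from 45263301 to 45266963 in GRCm39. GENCODE lists 3 transcripts, of which the shortest has 3 exons and spans 45263301 to 45264914. The 250 bases before its start, chr7:45264915-45265164, are promoter for that transcript and intron for the longer ones. They are printed here 5′ to 3′ on the minus strand because they hold 1 copy of the letters TGATGNAAN, the composite element that ATF4 and C/EBP factors bind. Capitals mark the match, which reads TGATGCAAT on the opposite strand and lies 140 to 132 bases before the start.
Fgf21 promoter: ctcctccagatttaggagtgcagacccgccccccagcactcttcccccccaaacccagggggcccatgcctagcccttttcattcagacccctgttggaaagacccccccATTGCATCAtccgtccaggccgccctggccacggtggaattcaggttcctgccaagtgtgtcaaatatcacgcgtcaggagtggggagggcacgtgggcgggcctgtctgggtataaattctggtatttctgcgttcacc

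The same letters were searched on both strands in the 250 bases before the start of every gene in the RefSeq promoter table (GRCm38.p6). They were present in 1052 of 27025 promoters (3.89%) and in 8 of the 27 promoters found for a list of 32 ISR genes (29.6%). Among the other lists below, 1 of 15 ER chaperone promoters (6.67%) and 1 of 12 fatty acid oxidation promoters (8.33%) held them. There were 0 matches in the adipogenic (17 promoters), p53 (12), ERK feedback (9), NRF2 (8), mitochondrial (8), heat shock (7) and cycling (6) lists. Lists of this size cannot be set apart from the share of all genes. The windows of all 8 ISR genes are shown next to that of Fgf21, each on the strand of its gene with the match in capitals, so that the letters can be compared. Slc7a11 had 2 matches. A match is a description of letters and not proof of a site. The ISR list was chosen as genes of the program of ATF4, which binds this element. Its share is therefore not independent of how the list was chosen.
Fgf21: agacccccccATTGCATCAtccgtccagg
Nupr1: aaagggccagATTGCATCAgacagggctt
Pycr1: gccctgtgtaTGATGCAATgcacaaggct
Atf3: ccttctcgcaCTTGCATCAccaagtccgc
Chac1: cttccctgccGTTGCATCActcctgccag
Pck2: agccttcaaaGTTACATCAgtatcttaca
Asns: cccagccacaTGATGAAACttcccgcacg
Vldlr: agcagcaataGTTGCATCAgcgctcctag
Slc7a11: ctcatgtggcTGATGCAAAcctggagaat
Slc7a11: acctggagaaTTTGCATCAtcatgcagcc
Fgf21, Nupr1 and Pycr1 shared the same 9 letters, Nupr1 on the same strand as Fgf21 and Pycr1 on the other.

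The 5′ end of the longer Fgf21 transcripts overlaps Fut1, a gene on the opposite strand, over 411 bases that begin 3252 bases from the 3′ end of Fgf21. Fut1 itself was low, with 170 UMIs in the Pdgfra-positive cells of iWAT against 4025 of Fgf21. The iWAT library held 503611913 UMIs (median 16204 per kept cell) and the iBAT library 815235820 (median 27235), and 8 barcode labels occurred in both. Libraries also differed in sex-linked transcripts, with Xist at 327 UMIs per 1e6 UMIs (CPM) in iWAT and 0.0508 in iBAT and the Y-linked Ddx3y at 1.16 and 81.4, in Pdgfra-positive cells. Depot, sex of the donors and library therefore cannot be told apart. With 1 library per depot, each interval given is at 95%, covers counting error only and has no replicate behind it.

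Cells were put in classes by markers. A cell met a class such as immune or epithelial when at least 3 of that class's markers had at least 2 UMIs each. Pdgfra-positive cells, which stand for adipose stromal cells and preadipocytes, had a Pdgfra UMI and met no other class. They numbered 16782 in iWAT and 25338 in iBAT, and 10 and 9 of the 10 stromal markers checked were at 10 CPM or more. The 8218 iWAT and 1406 iBAT cells that met no class and had no Pdgfra UMI also carried stromal transcripts, with Col1a1 at 16355 and 8843 CPM against 17904 and 6721 in Pdgfra-positive cells. These cells had 8 of the 10 stromal markers at 10 CPM or more in each library. They were lower than Pdgfra-positive cells in every marker except Col1a1 and Col1a2 in iBAT, such as Ly6a at 84.4 and 446 CPM against 140 and 709. Their median depth was lower, at 14734 UMIs in iWAT and 21055 in iBAT against 18185 and 27876.

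Fgf21 transcript in iWAT lay mostly in cells that met no class such as immune or epithelial. Pdgfra-positive cells held 4025 of the 7129 UMIs (56.5%) and the Pdgfra-zero cells without a class 2939 (41.2%). The level was 12.8 CPM in Pdgfra-positive cells (12.4 to 13.2) and 23.3 CPM in the Pdgfra-zero cells (22.4 to 24.1), a ratio of 1.82 (1.74 to 1.91). Epithelial cells, the largest other class with 3816 cells, had 73 Fgf21 UMIs or 1.58 CPM (1.24 to 1.99), and Pdgfra-positive cells exceeded them 8.08-fold (6.41 to 10.3). Immune cells had 2 UMIs in 131 cells, which gives 1.33 CPM (0.161 to 4.81). In the order of classes below Pdgfra-positive cells (mural, Schwann, epithelial and immune), each was within counting error of the next, and the 41 mural cells with 4 UMIs were within counting error of Pdgfra-positive cells. The mural level was 4.27 times the epithelial level (1.13 to 11.4), which rests on 4 UMIs and is not read as a difference.

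To compare shares of cells at equal depth, cells were thinned at random to 10000 UMIs and shallower cells were left out. In iWAT this kept 15103 of 16782 Pdgfra-positive, 6062 of 8218 Pdgfra-zero and 2268 of 3816 epithelial cells, and in iBAT every kept cell. An Fgf21 UMI was then found in 7.05% of the Pdgfra-positive iWAT cells (6.65 to 7.47), in 11.3% of the Pdgfra-zero cells (10.5 to 12.2) and in 1.76% of epithelial cells (1.26 to 2.39). Unthinned, the shares were 10.3%, 13.3% and 1.62%, at median depths of 18185, 14734 and 10942 UMIs. Within the Pdgfra-positive class the level varied with the subset. The subsets may overlap, and the part of cycling cells in the other levels was not separated. Cycling cells, defined by mitotic genes such as Mki67, had 7.87 CPM (7.43 to 8.32), cells with Dpp4, a marker of early progenitors, 6.41 CPM (5.59 to 7.31) and interferon-high cells 9.64 CPM (7.54 to 12.1). Cells in none of these subsets, and outside the 2 cells with at least 2 Adipoq UMIs, stood at 18.6 CPM (17.9 to 19.3).

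In iBAT the order was another. Pdgfra-positive cells made up 89.8% of the kept cells and held 48.4% of the Fgf21 UMIs, 294 in all, or 0.404 CPM (0.359 to 0.452). After thinning, 85 of 25338 of them had an Fgf21 UMI (0.335%, 0.268 to 0.415), and 0.797% unthinned. Neither immune cells (0 UMIs in 137 cells, interval up to 1.25 CPM), endothelial cells (1 UMI in 117 cells, 0.403 CPM, 0.0102 to 2.25) nor Schwann cells (1 UMI in 431 cells, 0.144 CPM, 0.00365 to 0.804) could be told from the Pdgfra-positive level at this depth. With 0 or 1 UMIs in each of these classes, the comparison could not show whether the Pdgfra-positive average of iBAT was above background. The UMIs of Pdgfra-positive cells were unevenly spread within the class. Pdgfra-zero cells without a class had 78 UMIs or 2.48 CPM (1.96 to 3.10), 6.15 times the Pdgfra-positive level (4.73 to 7.92). They also carried the adipogenic list at a higher sum than Pdgfra-positive cells, 1563 against 851 CPM, whereas in iWAT it was lower, 686 against 851 CPM. Whether that list has a part in their Fgf21 was not tested. Of the ISR genes at 10 CPM or more, 0 of 31 were at least 1.5-fold higher in the iWAT Pdgfra-zero cells (0.284% of all genes) and 0 were lower (0.9%), and in iBAT 3 of 25 were higher (1.07%) and 2 lower (3.89%).

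**Figure D1:**
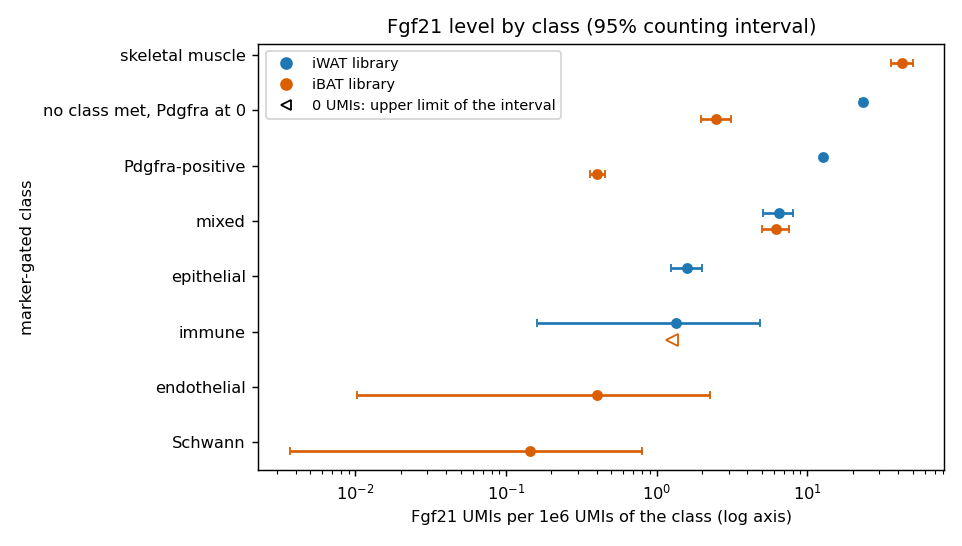
Fgf21 UMIs per 1e6 UMIs of each marker-gated class with at least 50 cells, on a log axis, in the iWAT (blue) and iBAT (orange) libraries, with 95% counting intervals and an open triangle at the upper limit where there were 0 UMIs. Skeletal muscle cells of iBAT (42.7 CPM) stand highest. Pdgfra-positive cells and Pdgfra-zero cells without a class lie higher in iWAT (12.8 and 23.3 CPM) than in iBAT (0.404 and 2.48 CPM).

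Among classes with at least 50 cells, the highest level belonged to skeletal muscle cells of the iBAT culture, gated by myogenic genes such as Myod1, Myog and Des. Their 167 cells were 0.592% of the library and held 138 Fgf21 UMIs, 22.7% of all in iBAT, at 42.7 CPM (35.9 to 50.5). A UMI was present in 27 of them (16.2%), or 11.4% after thinning (6.99 to 17.2), and the 3 highest cells had 38, 15 and 14 UMIs, so that a few cells gave much of the sum. All 138 UMIs lay in the 148 cells with at least 2 UMIs of Myog, the regulator of myocyte differentiation, and likewise in the 136 cells with at least 2 UMIs of Actc1, cardiac actin. The 19 cells below that Myog level had 0 UMIs, which allows up to 10.9 CPM, and the 22 cells with Pax7, the satellite cell factor, had 5 UMIs or 12.4 CPM (4.01 to 28.8). A further 116 iBAT cells met the muscle class together with Pdgfra or another class and held 94 UMIs, or 31.0 CPM. In iWAT only 5 cells met the muscle class, 2 of which held 9 UMIs, a level of 169 CPM (77.4 to 321) that rests on those cells.

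Muscle cells with an Fgf21 UMI after thinning carried more ISR transcript than those without. Before thinning 27 of the 167 had a UMI, so some of the zero cells were not free of Fgf21. The summed ISR list was 2405 CPM in the 19 thinned Fgf21-positive muscle cells and 1370 CPM in the 148 zero cells. Chac1, an ATF4 target that degrades glutathione, was at 47.4 CPM (9 UMIs) against 4.73 CPM (7 UMIs), and Atf4 itself at 311 against 182 CPM. Trib3, another target, had 0 and 3 UMIs. As a class, however, muscle cells had the lowest ISR sum in iBAT (1439 CPM against 2003 in Pdgfra-positive cells) and the highest Fgf21. The Pdgfra-zero cells of iBAT were above Pdgfra-positive cells in both, with an ISR sum of 2281 CPM. In iWAT the sum was 2708 CPM in Pdgfra-positive and 2669 CPM in Pdgfra-zero cells, and between 2055 and 2195 CPM in epithelial, Schwann and immune cells, where Fgf21 was lower. The 41 mural cells of iWAT went the other way, with a higher sum of 3212 CPM and Fgf21 at 6.76 CPM on 4 UMIs (1.84 to 17.3).

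Fgf21 was unevenly spread among stromal cells. Of the 16782 Pdgfra-positive iWAT cells, 15057 had no UMI, 982 had 1, 325 had 2, 231 had 3 or 4 and 187 had 5 or more, up to 29 in 1 cell. The 168 cells with the most UMIs (the top 1%) held 37.7% of the total. The variance was 5.56 times the mean, and 3.17 times the mean after thinning, where counts spread evenly over cells of equal depth would give a ratio near 1. Counting intervals of Fgf21 levels treat UMIs as independent and are therefore too narrow. In iBAT, 149 Pdgfra-positive cells had 1 UMI, 31 had 2, 16 had 3 or 4 and 6 had 5 or more, with a highest count of 7. The Pdgfra-zero cells reached 31 UMIs in iWAT and 19 in iBAT.

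**Figure D2:**
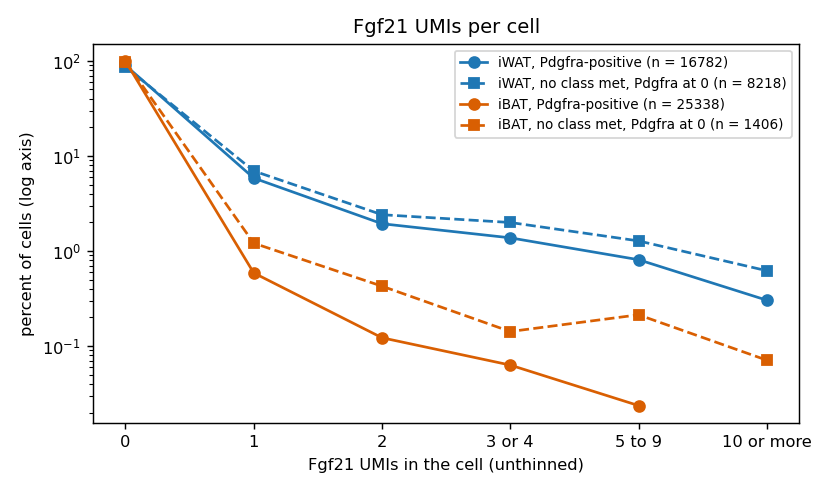
Percent of cells (log axis) with 0, 1, 2, 3 or 4, 5 to 9 and 10 or more unthinned Fgf21 UMIs, for Pdgfra-positive cells (solid) and Pdgfra-zero cells without a class (dashed) of iWAT (blue) and iBAT (orange). In iWAT 51 cells of each class reach 10 UMIs or more, while no Pdgfra-positive iBAT cell does.

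Between the libraries, the Pdgfra-positive level of 12.8 CPM in iWAT was 31.7 times the 0.404 CPM of iBAT (28.1 to 35.8). Among 8959 genes at 10 CPM or more in at least 1 library, 9 had a higher ratio of iWAT to iBAT. Fgf21 met that floor in iWAT alone. Such a floor favours genes higher in the library that meets it, so the rank is not read as a result. Since the iBAT level could not be told from that of classes with few UMIs, the ratio, its interval and its rank compare UMIs. The difference in expression itself could be larger. The difference was 9.38-fold (7.49 to 11.9) in Pdgfra-zero cells without a class and 18.5-fold (17.05 to 20.2) over all kept cells. Cells of mixed class showed no difference beyond counting error, with 6.45 CPM in iWAT and 6.16 in iBAT (ratio 1.05, 0.764 to 1.43), where 94 of the 95 iBAT UMIs came from cells that met the muscle class.

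The genes through which FGF21 acts were read in the same Pdgfra-positive cells. The iWAT cells had 294 CPM of Fgfr1, its main receptor, and the iBAT cells 285 CPM. Fgfr2 was at 39.7 CPM in iWAT, and Fgfr3 and Fgfr4 were at 0.581 and 0.200 CPM there. Klb, the co-receptor that FGF21 needs, had 10 UMIs or 0.0318 CPM (0.0152 to 0.0584) in iWAT and 41 UMIs or 0.0563 CPM in iBAT. Kl, which encodes the Klotho co-receptor of FGF23, was at 0.0191 and 0.0343 CPM. Of the other endocrine ligands, Fgf23 was at 0.184 and 0.135 CPM, and Fgf15 was not listed in iWAT and had 1 UMI in iBAT. Ppara, the fasting regulator of Fgf21 in liver, was at 0.473 and 0.625 CPM. In iWAT, Fgf21 thus had 4025 UMIs where its co-receptor had 10.

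Fgf21-positive cells were then compared with Fgf21-zero cells within the Pdgfra-positive class, after thinning. There were 1065 positive and 14038 zero cells in iWAT, and 85 and 25253 in iBAT. Zero cells include those whose Fgf21 UMIs were lost in thinning. Unthinned, 202 Pdgfra-positive iBAT cells had a UMI, so most of these were counted as zero. Depth before thinning was alike, at medians of 19224 and 19076 UMIs in iWAT and 27820 and 27876 in iBAT, and so was the mitochondrial share (5.73% and 5.37%, 6.60% and 6.42%). Doublets called by Scrublet were 1.69% of the positive and 1.10% of the zero cells in iWAT, and 1.18% of both in iBAT. Fewer positive cells were cycling, 32.1% against 48.6% in iWAT and 37.6% against 53.2% in iBAT, and in iWAT fewer had Dpp4, 6.29% against 10.99%. The part of cycling in the differences below was not separated except where cells without cycling genes are named. Positive and zero cells may also come from the merged cultures in unlike shares. Without the tags, the part of FGF treatment in the differences and gradients below cannot be told apart.

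Of 8141 genes at 10 CPM or more in both libraries, 40 (0.491%) were at least 1.5-fold higher in positive cells of both libraries and 95 (1.17%) were at least 1.5-fold lower. In iWAT alone the shares were 0.614% and 2.03%, and in iBAT, where 85 positive cells make the ratios noisy, 3.82% and 9.46%. The leading genes of one library were read in the other. All 10 that led in iWAT were above 0 in iBAT, from a log2 ratio of 0.61 for Hs6st1, a heparan sulfate sulfotransferase, to 2.74 for Aldh1a3. The 10 that led in iBAT (Aldh1a3, Cdh6, Aspn, Mfap4, Pmaip1, Col5a3, Itga11, Fndc1, Postn and Aldh1l2) were between 0.25 and 1.26 in iWAT, with the matrix genes Postn (0.25), Col5a3 (0.39) and Aspn (0.42) lowest.

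Gdf15, like Fgf21 a secreted stress hormone, had the largest smaller-of-both ratio. It stood at 28.9 CPM in positive and 11.5 CPM in zero cells of iWAT, a log2 ratio of 1.33 (1.15 to 1.51), and at 62.4 and 24.9 CPM in iBAT, also 1.33 (0.91 to 1.71). This call was lost in iBAT when cycling cells were left out, with a log2 ratio of 0.53, and the ratio was 0.74 when a positive cell needed 2 Fgf21 UMIs. Aldh1a3, which makes retinoic acid, followed with 44.3 against 18.5 CPM in iWAT (1.26, 1.11 to 1.40) and 168 against 25.1 CPM in iBAT (2.74, 2.49 to 2.98). The glycine transporter gene Slc6a9 had log2 ratios of 1.15 in iWAT and 1.48 in iBAT, the alanine transaminase gene Gpt2 0.99 and 1.10, the proline synthesis gene Pycr1 0.92 and 1.58, and Aldh1l2, a mitochondrial folate enzyme, 0.93 and 1.87. Nupr1, a small stress-induced chromatin protein gene, was at 150 against 78.9 CPM in iWAT and 142 against 57.9 CPM in iBAT. The remaining leaders were the cadherin gene Cdh6 (1.15 and 2.50), the secreted Crispld2 (1.09 and 1.49), the cell cycle inhibitor Cdkn2b (1.08 and 1.72), Acot2, a mitochondrial acyl-CoA thioesterase (0.92 and 1.58), and Cspg4, a proteoglycan of perivascular and progenitor cells (0.88 and 0.89). In iBAT the call of Cspg4 was lost with another random thinning (0.45) and without thinning (0.31), that of Gpt2 was lost with 2 Fgf21 UMIs (0.47), and Cdkn2b was at 0.68 with another thinning. With 2 Fgf21 UMIs, Cdh6 was lower in iBAT (1.24) than in iWAT (1.52), while the iBAT ratios of Crispld2 and Aldh1a3 were 3.37 and 3.90, and without thinning Cdh6 was at 1.62 in iBAT.

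**Figure D3:**
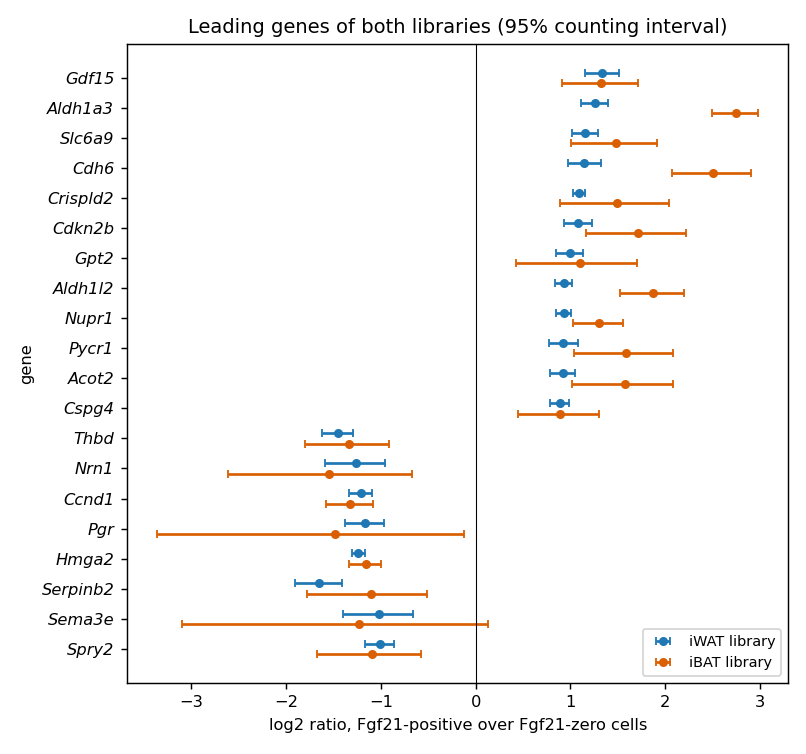
Log2 ratio of UMIs per 1e6 UMIs, Fgf21-positive over Fgf21-zero Pdgfra-positive cells, in iWAT (blue) and iBAT (orange) with 95% counting intervals, for the 12 genes highest and the 8 lowest in both libraries. Aldh1a3 (1.26 in iWAT) lies furthest to the right in iBAT at 2.74, and the iBAT interval of Sema3e reaches past 0.

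Of the 10 gene lists, the ISR list had the highest median in both libraries. Of its 32 members 25 were at the floor of 10 CPM, and 8 of these were at least 1.5-fold higher in positive cells of both libraries, where the share over all genes was 0.491%. They were Asns (asparagine synthetase), Nupr1, Gdf15, Psph (the last enzyme of serine synthesis), Aldh1l2, Slc7a5 (a neutral amino acid transporter), Pck2 (mitochondrial PEP carboxykinase) and Pycr1. Asns was at 203 against 120 CPM in iWAT and 164 against 80.0 CPM in iBAT. Pck2 was at 182 against 102 CPM in iWAT and 174 against 56.7 CPM in iBAT. Altogether 24 of the 25 were above 0 in both libraries, where 1842 of the 8141 genes were, and the list median was 0.47 in iWAT and 0.75 in iBAT against -0.05 and -0.06 over all genes. Cebpb, which is also an inflammatory and adipogenic factor, was the exception, at -0.19 and -0.13.

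Atf4, which is mainly controlled by translation, had log2 ratios of 0.36 in iWAT (0.31 to 0.41) and 0.49 in iBAT (0.28 to 0.69). Atf5 had 0.47 and 0.75, and Ddit3, which encodes CHOP, 0.48 and 1.31. The 7 members below the floor, because they were low in 1 or both libraries, were also above 0 in both. Among them Chac1 was at 44.9 against 18.6 CPM in iWAT and 25.9 against 6.47 CPM in iBAT, Trib3 at 43.7 against 21.2 and 29.4 against 5.11 CPM, and Cth, which makes cysteine, at 51.3 against 21.7 and 16.5 against 3.90 CPM. Stc2 was the lowest of the 7, with 0.28 and 0.09, and the iBAT intervals of Stc2, Atf3 (4 UMIs) and Slc7a3 (4 UMIs) included 0. Promoters with the composite element were found for 5 of the 30 genes higher in both libraries that had a promoter entry (16.7%), for 2 of 78 lower genes (2.56%) and for 143 of 6513 genes at the floor (2.20%). Asns, Nupr1, Pck2 and Pycr1 are among the 5 and were already counted with the ISR list, so the first share largely repeats that of the list.

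The other stress lists lay closer to the median of all genes. Among 17 ER chaperone and quality control genes, Herpud1, an ER degradation gene, was the 1 member at least 1.5-fold higher in both libraries (0.491% of all genes were), and the list medians were -0.02 in iWAT and 0.06 in iBAT. Hspa5, the main ER chaperone, was at 2306 against 2183 CPM in iWAT and 1534 against 1343 CPM in iBAT. The 10 mitochondrial chaperones and proteases had medians of 0.02 and 0.05 with 0 members past the fold in both libraries. NRF2 targets of oxidative stress had medians of -0.19 and -0.37 with 0 of 10 above 0 and 7 below 0 in both (1842 and 3503 of the 8141 genes), heat shock genes -0.06 and -0.21, and p53 targets 0.03 and -0.04, with 0 members past the fold in both for each, counts that lists of this size cannot set apart from the share of all genes. The medians of the ER chaperone list in iWAT and of the mitochondrial and p53 lists in both libraries changed sign under at least 1 alternative.

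**Figure D4:**
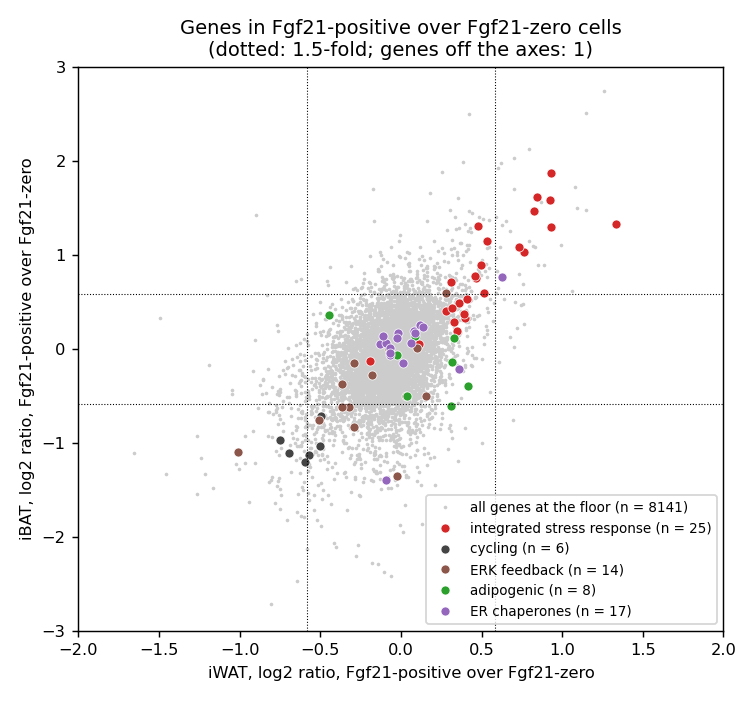
Log2 ratio of UMIs per 1e6 UMIs, Fgf21-positive over Fgf21-zero Pdgfra-positive cells, in iWAT (horizontal) and iBAT (vertical) for 8141 genes, with 5 gene lists coloured and dotted lines at 1.5-fold. The ISR genes (red) lie to the upper right, with 8 past both lines, the cycling genes (black) to the lower left, most ER chaperone genes (purple) around 0, and the adipogenic genes (green) are scattered, up to 0.41 in iWAT and down to -0.61 in iBAT.

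Of the 23 adipogenic genes only 8 reached the floor, 0 of them past the fold in both libraries (0.491% of all genes were higher and 1.17% lower), which so few genes cannot set apart from the share of all genes. The medians were 0.20 in iWAT and -0.10 in iBAT, the latter between -0.87 and 0.14 under the alternatives. Pparg, the master regulator of adipocyte differentiation, was at 13.2 against 10.5 CPM in iWAT (log2 ratio 0.33, 0.07 to 0.58) and 32.9 against 30.4 CPM in iBAT (0.12, -0.48 to 0.65). Fabp4, a lipid carrier that rises early in differentiation, had 0.32 (0.19 to 0.44) in iWAT and -0.14 (-0.47 to 0.17) in iBAT. Adipoq, which marks adipocytes, had 1 UMI in the 1065 positive iWAT cells and 0 UMIs in the 85 positive iBAT cells, where the 25253 zero cells had 933 UMIs or 3.69 CPM, so that few UMIs could be seen at this depth. Of the fatty acid oxidation list 9 of 15 members reached the floor, Acot2 was the 1 at least 1.5-fold higher in both libraries (0.491% of all genes), and the medians were -0.02 and -0.10, both of which changed sign with thinning to 5000 UMIs (0.01 and 0.24). Ppara had 7 UMIs in positive iWAT cells and 0 in iBAT. Fgfr1 was at 263 against 295 CPM in iWAT and 284 against 285 CPM in iBAT.

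Of the 8 named genes lower in Fgf21-positive cells, Thbd was the first by the rule. Ccnd1, which encodes the G1 cyclin D1 and responds to mitogens, was at 51.1 against 119 CPM in iWAT (log2 ratio -1.22, -1.34 to -1.09) and 160 against 402 CPM in iBAT (-1.33, -1.58 to -1.09). Hmga2, a chromatin factor of proliferating mesenchymal cells, was at 164 against 386 and 342 against 765 CPM. Thbd (thrombomodulin) had -1.46 in iWAT and -1.34 in iBAT, Serpinb2, a protease inhibitor gene, -1.66 and -1.11, and Spry2, a feedback inhibitor of FGF signalling, -1.01 and -1.10. Nrn1 (-1.26 and -1.55), the progesterone receptor gene Pgr (-1.17 and -1.49) and the semaphorin gene Sema3e (-1.02 and -1.23) rest on 10 or fewer UMIs in positive iBAT cells. Nrn1 did not keep its direction in iBAT, where another random thinning gave 0.62. Without thinning, the iBAT ratio of Serpinb2 was -0.03, and it was -2.39 in non-cycling cells. With thinning to 5000 UMIs the iBAT ratios of Pgr (-0.21), Sema3e (-0.01) and Spry2 (-0.42) were no longer past the fold, and that of Ccnd1 was -0.73.

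Of the 15 ERK feedback targets, which report FGF signalling, 14 reached the floor. Spry2 alone was at least 1.5-fold lower in both libraries (over all genes the share was 1.17%), a call lost at 5000 UMIs, 10 of the 14 were below 0 in both, as were 3503 of the 8141 genes, and the medians were -0.23 and -0.50. Spry1 went the other way with 0.28 and 0.59, and Egr1 was near 0 with -0.08 and 0.00. All 6 cycling genes were likewise below 0 in both libraries, against that share of all genes, with medians of -0.58 and -1.07, and Mki67, Birc5 and Ube2c were past the fold in both. When cycling cells were left out, 26 genes were at least 1.5-fold higher and 55 lower in both libraries, of which 23 and 31 were among the 40 and 95 above.

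To see how Fgf21 changed along each program, the thinned Pdgfra-positive cells were ordered by the summed UMIs of a list, none of which contains Fgf21, and split into deciles. Along the ISR sum, Fgf21 in iWAT went from 1.79 CPM in the lowest decile (1.18 to 2.60, 27 UMIs) through 7.48 CPM in decile 5 to 35.6 CPM in the highest (32.7 to 38.8, 538 UMIs). The top decile exceeded the bottom decile 19.9-fold (13.6 to 30.5), and the share of cells with a UMI went from 1.46% to 16.9%. This iWAT ratio was 22.5 with another random thinning and 11.9, below the interval, with thinning to 5000 UMIs. The iBAT level stayed between 0.0395 and 0.316 CPM over the lower 8 deciles and reached 1.86 CPM in the highest (47 of 100 UMIs), 5.88 times the lowest (2.75 to 14.4). This iBAT ratio was 13.01 with another random thinning and 3.43 with thinning to 5000 UMIs.

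Of the other lists, the cycling and ERK feedback sums gave gradients in the opposite direction. Along the cycling sum Fgf21 went from 22.8 to 6.09 CPM in iWAT, a top-over-bottom ratio of 0.267 (0.210 to 0.337), and the iBAT ratio was 0.0588 (0.00141 to 0.376) on 17 and 1 UMIs. Along the ERK feedback sum the ratio was 0.491 in iWAT (0.395 to 0.608) and 0.191 in iBAT (0.0476 to 0.565). The intervals of the ER chaperone sum (1.21, 0.967 to 1.51 in iWAT, and 3.00, 0.910 to 12.8 in iBAT) and of the adipogenic sum (0.930, 0.757 to 1.14, and 0.5002, 0.154 to 1.44) included an equal level, the iBAT ratio of the ER chaperone sum was 5.00 with thinning to 5000 UMIs, above the 3.43 of the ISR sum at that depth, and the adipogenic ratio turned to 1.31 in iWAT with another random thinning and to 2.33 in iBAT with thinning to 5000 UMIs.

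**Figure D5:**
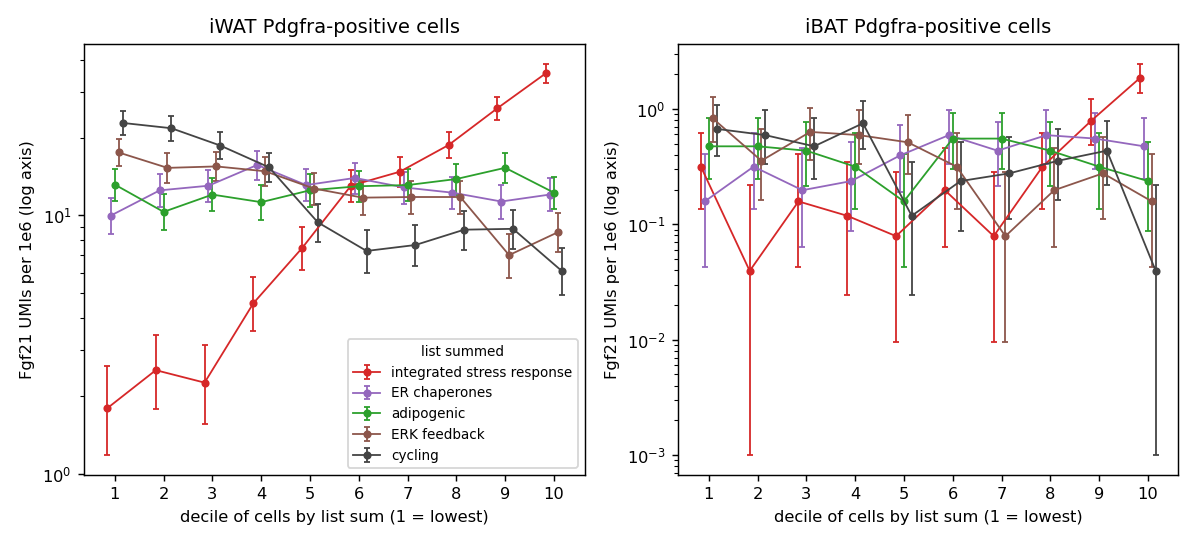
Fgf21 UMIs per 1e6 UMIs (log axis) in deciles of the thinned Pdgfra-positive cells ordered by the summed UMIs of each of 5 gene lists, with 95% counting intervals, in iWAT (left) and iBAT (right). In iWAT the ISR line climbs from 1.79 to 35.6 CPM and the cycling line declines from 22.8 to 6.09 CPM. In iBAT the interval of the ISR line is clear of the others in the top decile only.

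The ISR and cycling sums were then crossed, since Fgf21-positive cells differed in both. In iWAT, cells in the top quintile of the ISR sum had 41.7 CPM Fgf21 when not cycling (38.5 to 45.1) and 20.2 CPM when cycling (18.0 to 22.6). Below the top quintile the levels were 11.6 CPM (10.8 to 12.5) and 4.21 CPM (3.69 to 4.78). In iBAT the order was the same, at 1.86 CPM (1.32 to 2.55) and 0.986 CPM (0.655 to 1.42) in the top quintile and 0.234 CPM (0.148 to 0.351) and 0.103 CPM (0.0516 to 0.185) below it. The ISR step was thus present in both cycling and other cells of both libraries.

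Crossing the ISR with adipogenic genes gave no such second step in iWAT below the top quintile of the ISR sum, with 8.75 CPM (7.57 to 10.1) at a high adipogenic sum and 8.01 CPM (7.46 to 8.59) at a lower one. In the top quintile of the ISR sum the values were 38.1 CPM (32.6 to 44.4) and 29.7 CPM (27.6 to 31.8). These intervals do not overlap, but like those of the ISR and cycling steps they leave out the uneven spread of UMIs over cells. The adipogenic step was smaller than those steps, and whether it is a difference was not tested. In iBAT the values in the top quintile were 0.660 CPM (4 UMIs, 0.180 to 1.69) and 1.45 CPM (1.11 to 1.86). Cells without any Adipoq UMI showed the ISR step as well, 30.8 against 8.15 CPM in iWAT and 1.36 against 0.167 CPM in iBAT. Too few cells had an Adipoq UMI, 12 in iWAT with 2 Fgf21 UMIs and 143 in iBAT with 0, for a level of their own.

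The ISR also differed between the libraries. Of the 25 ISR genes at 10 CPM or more in the Pdgfra-positive cells of both libraries, 12 were at least 1.5-fold higher in iWAT (the share over all genes was 6.29%) and 1 was at least 1.5-fold lower (6.63%), with a list median log2 ratio, iWAT over iBAT, of 0.57 against -0.05 over all genes. A further 5 members reached 10 CPM in iWAT alone and were left out of this count, a choice made after the values were seen, since a floor met in 1 library favours genes higher there. The highest ratios of the 25 were those of Vldlr, a lipoprotein receptor gene (35.1 and 12.95 CPM), and Aldh1l2 (59.6 and 23.6 CPM), and Atf4 was at 240 and 167 CPM. Gdf15 was the lower one, with 12.98 CPM against 27.1 CPM in iBAT. Gdf15 and Fgf21 therefore differed between the libraries in opposite directions, although each went with the other between cells of 1 library.

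The depot difference in Fgf21 was next read at like ISR sums. Cells of both libraries were put in 5 shared ranges of the thinned ISR sum. In the lowest range Fgf21 was at 2.14 CPM in 2293 iWAT cells and 0.187 CPM in 6941 iBAT cells, a ratio of 11.4 (6.10 to 22.9). In the highest it was at 25.5 CPM in 5066 iWAT cells and 1.88 CPM in 2602 iBAT cells, a ratio of 13.6 (10.2 to 18.4). The ratios of the 3 ranges between were 21.4, 36.8 and 23.2. The iBAT levels of the 3 lowest ranges rest on 13, 5 and 8 UMIs. They lie below the Pdgfra-positive average, which could not be told from the level of classes with few UMIs. The ratios between libraries therefore compare UMIs, and no order is read from them.

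The genes most like Fgf21 across cell classes were of another kind. Over the 8 classes with at least 50 cells, centred within each library on the scale of log2(CPM + 1), the closest of 11519 genes were Ddc (Pearson r 0.983), which encodes aromatic L-amino acid decarboxylase, Kremen1 (0.980), a Wnt pathway receptor gene, Pdxp (0.980), Des (0.979) and Kbtbd4 (0.978). Muscle cells carried the highest level of all 5, from 12.999 CPM of Pdxp to 958 CPM of Des, and Des was itself a marker used to gate that class. Classes of a library may share free RNA, which was not measured, and 8 points with 1 high value give such coefficients easily.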

How the data were processed

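Single-cell transcriptomes of primary stromal vascular cells were measured in 2 libraries, iWAT and iBAT. Per the labels and the paper, reads were processed on a commercial platform and handled in Seurat 5.0.0, with mm39 named as the build. The values deposited are UMI counts of each gene in each cell, not normalized. The counter's version, its treatment of multi-mapping reads and its annotation are not given in the sources used here. Every column belonged to 1 of the 2 labelled samples (0 unmapped columns).

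Cells with more than 200 and fewer than 7500 genes and under 30% mitochondrial UMIs were kept, which removed 218 iWAT and 421 iBAT cells. All further steps used Python 3.11.15 with numpy 2.4.6, scipy 1.17.1, pandas 2.3.3 and scanpy 1.11.5. A class needed 3 markers at 2 UMIs each. Cells of a class had Pdgfra at 0, and cells that met a class with Pdgfra, or several classes, were called mixed. Levels are summed UMIs per 1e6 UMIs of the cells with exact Poisson intervals, shares carry Clopper-Pearson intervals, and ratios carry exact conditional binomial intervals, all at 95% and for counting error only. Thinning to 10000 UMIs left out shallower cells (5588 in iWAT, 0 in iBAT). Doublets were called with Scrublet at an expected rate of 0.08 and kept. Its automatic threshold called 561 cells in iWAT (1.89%) and 0 in iBAT, where the iWAT threshold of 0.423 was used instead (398 cells, 1.41%).

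The member, the lists, the classes and the bins were chosen with earlier results of these data known. Named genes were the 12 with the highest smaller ratio and the 8 with the lowest larger ratio of both libraries, list members past 1.5-fold in both, a set of ISR, adipogenic and FGF21 pathway genes whatever they showed, the 5 genes most like Fgf21 across classes, and the 10 leaders of each library read in the other. No test could be made with 1 library per depot. The routine was checked on counts simulated from iWAT means, with a larger share of positive cells than in the data. The changed genes were at 50 CPM or more, and cells had no spread beyond counting error. That check does not cover genes near the floor of 10 CPM or the few positive cells of iBAT. Alternatives were other cell filters, gates, thinning depths and seeds, a higher floor, a stricter positivity, subsets of cells and reweighting by depth in place of thinning.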

Additional observations from a re-analysis of the deposited data

Results flagged for a closer look

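Fgf21 UMIs were also present in the cells that the cell filter removed, which enter no comparison. In iWAT the 218 removed cells, nearly all of high mitochondrial share, held 13 Fgf21 UMIs or 7.02 CPM (3.74 to 12.0), above the 1.62 CPM that a count of 3 would give. In iBAT the 421 removed cells, nearly all above the limit on genes, held 8 Fgf21 UMIs or 0.336 CPM (0.145 to 0.661), above a limit of 0.126 CPM.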

How the results depend on the processing

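No paired analysis was possible because each depot has 1 library and no result comes from a test. Of 282 repeats of the levels, counts, medians and gradients under an alternative, 245 stayed within a set range and 37 moved. For levels and gradients the range was the counting interval, and for counts it was 1.5-fold. For a list median it was the typical width of the counting intervals of single members. That is not an interval of the median and is a loose limit. The adipogenic median of iBAT, -0.10, stayed within it at -0.49 in non-cycling cells. Medians and ratios lay on the other side of an equal level in 25 of 224 repeats, in 11 of 31 results, all of the adipogenic, fatty acid oxidation, mitochondrial, p53 and ER chaperone lists. None did so for the depot ratio or for the ISR, ERK feedback, cycling, NRF2 and heat shock lists. For the single named genes, 251 of 324 repeats stayed and 2 reversed, both for Nrn1 in iBAT (0.62 with a second random thinning and 0.0051 without thinning). The causes of these moves were not tested.

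Requiring 2 Pdgfra UMIs lowered Fgf21 to 11.01 CPM and 6.10% of cells in iWAT and 0.296 CPM in iBAT, an iBAT-over-iWAT ratio of 0.0269 against 0.0316. Adding the Pdgfra-zero cells without a class, chosen after seeing the data, gave 15.8 CPM and 8.28% in iWAT and 0.489 CPM in iBAT, and top-over-bottom ratios in iWAT of 0.964 for the ER chaperone and 1.18 for the adipogenic sum. Thinning to 5000 UMIs gave shares of 4.34% and 0.205%, 152 lower genes, and top-over-bottom ratios in iWAT of 11.9 (ISR), 1.55 (ER chaperone), 1.23 (adipogenic) and 0.368 (cycling), and of 2.33 for the adipogenic sum in iBAT, whose direction was thus not settled. The iBAT ISR ratio of 5.88 ranged from 3.43 to 13.01.

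Counts of genes 1.5-fold or more higher and lower in both libraries were 61 and 260 with positivity set at 2 Fgf21 UMIs (12 positive iBAT cells), 26 and 55 in non-cycling cells, and 9 and 31 at a floor of 50 CPM, where 4 ISR genes remained. A second random thinning shared 30 of the 40 higher and 68 of the 95 lower genes. Of the 12 named higher genes, those that could be read stayed above 0 in both libraries under each alternative. Only 11 could be read in non-cycling cells and 1 at the floor of 50 CPM, against all 12 elsewhere. Gdf15, Gpt2 and Cspg4 fell below 1.5-fold in iBAT under at least 1 alternative.

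Medians that moved were, with 2 Fgf21 UMIs, ISR 0.55, NRF2 -0.32, heat shock -0.18 and cycling -0.82 in iWAT and adipogenic -0.87 in iBAT. They were, at the higher floor, ISR 0.39 in iWAT. In non-cycling cells the cycling list was at -0.50 in iWAT and -0.59 in iBAT. The second thinning gave heat shock -0.18 and cycling -0.71 in iWAT, and 1.31 for the adipogenic sum's top-over-bottom ratio. Cycling members past the fold were 6 with 2 Fgf21 UMIs and 5 with the second thinning, against 3.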
